A study of Mus musculus with 8 samples.

Results

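The transcripts of 10 S100 genes of cultured mouse keratinocytes were compared between wild-type cells and type I keratin knockout (KO) cells. The genes S100a7a, S100a8, S100a9, S100a3, S100a4, S100a6, S100a10, S100a11, S100a14 and S100a16 were chosen because they lie in the epidermal differentiation complex, and all 10 were found by symbol, each with 1 probe, among the 16593 genes with a probe. All 10 were above the background limit, an intensity of 6.30, on every one of the 8 Illumina arrays. They therefore entered the test with 9881 genes in all, and none depended on a filter on dim probes.

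S100 proteins are small calcium-binding proteins with EF-hand loops that mostly act as dimers. S100a8 and S100a9 pair to form calprotectin, a metal-binding antimicrobial complex that is abundant in neutrophils and is induced in wounded or inflamed epidermis, and mouse S100a7a is related to the human psoriasins of psoriatic skin. Others serve inside the cell, such as S100a10 and S100a11, which bind annexins at membranes. Their genes cluster beside those of the cornified envelope, the protein shell of the outermost skin cells.

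The cells were isolated from the skin of C57Bl6 embryos at E18.5, shortly before birth, and grown to confluency in keratinocyte medium. The KO group is labelled as a knockout of the type I keratins, the acidic keratins that pair with type II keratins to build the filaments of epithelial cells, and the other group as wild type. Neither group is labelled with a further treatment or allele. Each group had 4 arrays, numbered 1, 2, 3 and 1.1, and the labels do not say whether separate embryos gave these cultures. The p-values then cover the spread among these samples only, and that spread may be technical. The labels describe array 1.1 as a repeat of array 1. In wild type this pair differed by an SD of 0.205 on the log2 scale, but KO array 1.1 differed from KO array 1 by an SD of 0.640 and from KO array 3 by 0.213. KO array 1.1 thus went against its label. It was averaged with KO array 3, and wild-type array 1.1 with wild-type array 1, which left 3 KO and 3 wild-type samples. In the samples so formed, KO sample 3 is the mean of 2 arrays, as is wild-type sample 1.

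The deleted genes followed the labels. Krt14 read -2.90 to 9.28 on the KO arrays and 17836 to 19131 on the wild-type arrays, and Krt17 read -6.48 to 0.81 and 16655 to 19131. All 10 keratinocyte markers, among them Krt5 and Trp63, were above background on all arrays. Of 13 neutrophil and macrophage markers with a probe, 7 were above background on no array, Ptprc, Itgam, Lyz2 and Mpo among them, and the list's summed intensity was 40.8 to 81.9 in KO and 43.6 to 56.3 in wild type. Fibroblast markers summed to 272 to 574 in KO and 80.5 to 1124 in wild type, and melanocyte markers to 387 to 1614 and 916 to 3263. Of 6 Langerhans and T cell markers, 0 were above background on at least 3 arrays, and of 5 endothelial markers 1 was. In bulk RNA, fewer cells of a type and less RNA per cell cannot be told apart.

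Of the 10 S100 genes, 2 rose in KO cells and 8 did not pass the test. S100a7a rose about 10.6-fold and S100a3 about 1.97-fold on the scale used for the fit, log2(intensity + 16), which understates the change of dim genes. S100a8 and S100a9 were far lower in KO samples 1 and 2 than in any wild-type sample, but not in KO sample 3. S100a6 and S100a16 differed by 0.05 and -0.08 on the log2 scale, and the remaining 4 by 0.30 to 0.49. The test was limma's, 3 KO against 3 wild-type samples, with Benjamini-Hochberg adjustment over all 9881 genes and a threshold of 0.05. Of all genes tested 0.708% passed, 0.293% as higher and 0.415% as lower in KO. The KO samples lay above all wild-type samples for 6 of the 10, against 11.6% of all genes, and below them for 0, against 10.9%, so that 22.5% of all genes did not overlap. The median difference of the 10 was 0.30, with 7 positive, and that of all genes was 0.02, with 5185 of 9881 positive. With 3 samples against 3, an exact permutation test of a single gene cannot give a two-sided p under 0.1, which those 6 genes reached.

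**Figure D1:**
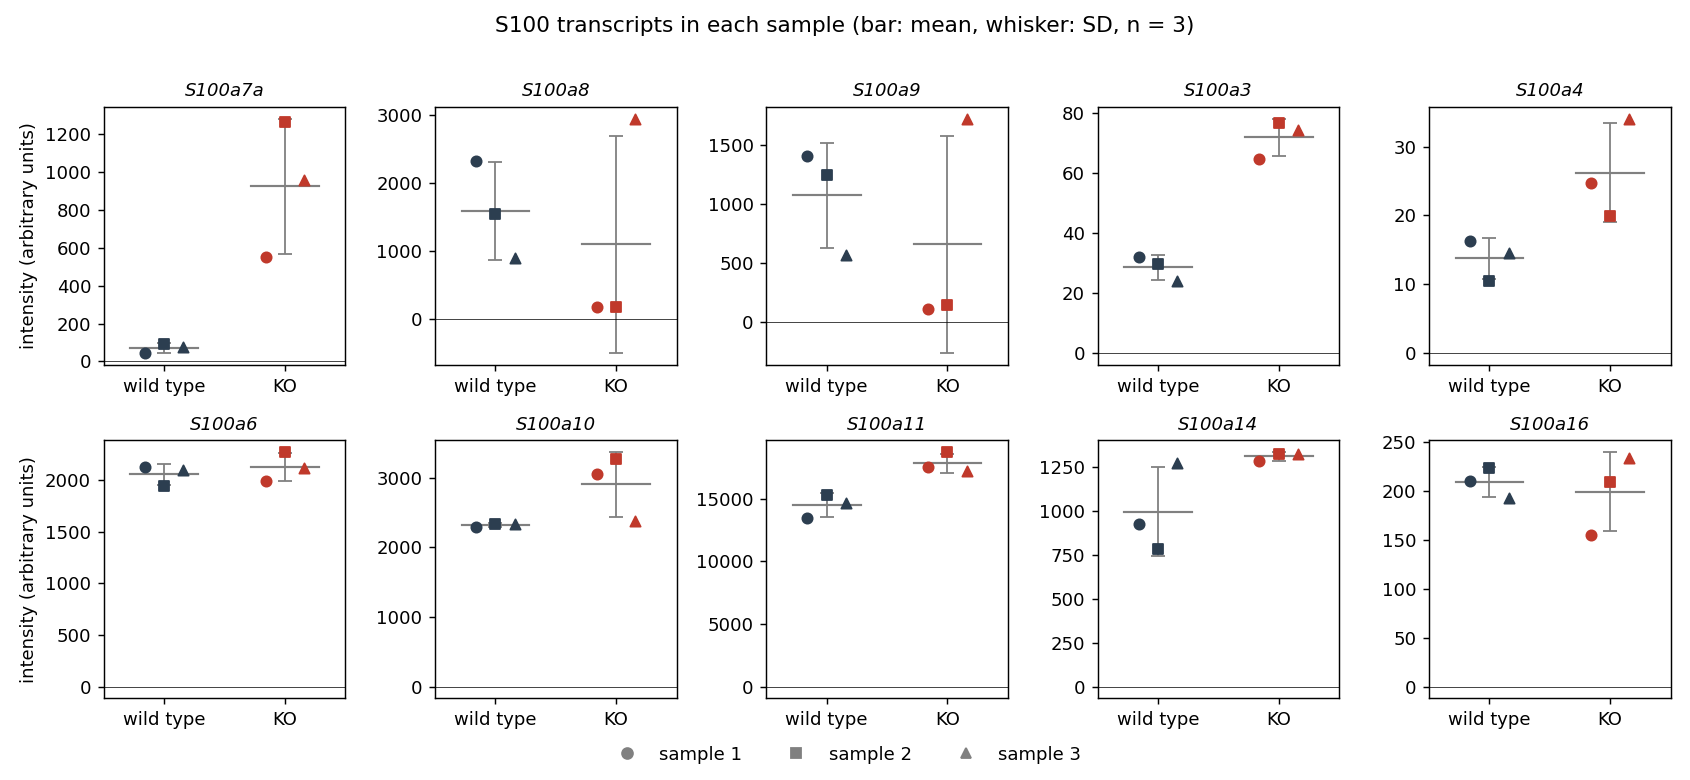
Intensity (arbitrary units, linear axis) of each of the 10 S100 transcripts in the 3 wild-type and 3 KO samples, with the mean as a horizontal bar and the SD as a whisker. S100a7a and S100a3, which passed the test, separate the genotypes, as do S100a4, S100a10, S100a11 and S100a14, which did not pass. S100a8 and S100a9 are low in KO samples 1 and 2 and high in KO sample 3.

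S100a7a, secreted by keratinocytes of inflamed mouse skin and a chemoattractant there, had an intensity of 551 in KO sample 1, 1264 in KO sample 2 and 960 in KO sample 3. Its wild-type values were 43.2, 92.0 and 77.9 in samples 1, 2 and 3. Every KO sample was thus several times above every wild-type sample, and the lowest KO value and the highest wild-type value lay far apart. The KO mean was 925 ± 358 and the wild-type mean 71.0 ± 25.1 (SD, n = 3 samples per genotype). The log2 difference was 3.40 ± 0.34 (SE), with a limma adjusted p of 0.0132. It ranked 5 among the 9881 genes by the size of the rise. The spread within a genotype was about equal, with an SD of 0.60 in KO and 0.45 in wild type on the log2 scale. Without KO sample 3 the log2 difference was 3.34 ± 0.39 (adjusted p = 0.0221). The call was lost without KO sample 2 (adjusted p = 0.0614), wild-type sample 1 (0.0702) or wild-type sample 2 (0.0526), while the difference stayed between 3.14 and 3.73 with any 1 sample left out.

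The promoter window of S100a7a, from 250 bases before to 50 after its annotated start, is shown here because this gene had the largest change of the 10 (chr3:90654052-90654351, plus strand, RefSeq, GRCm38.p6; the arrays name no build). Capitals mark matches to a set of motifs searched on both strands, which were TGANTCA for AP-1, TTNNGNAA for C/EBP, TTCNNNGAA for STAT and TATAAA for the TATA box.
S100a7a: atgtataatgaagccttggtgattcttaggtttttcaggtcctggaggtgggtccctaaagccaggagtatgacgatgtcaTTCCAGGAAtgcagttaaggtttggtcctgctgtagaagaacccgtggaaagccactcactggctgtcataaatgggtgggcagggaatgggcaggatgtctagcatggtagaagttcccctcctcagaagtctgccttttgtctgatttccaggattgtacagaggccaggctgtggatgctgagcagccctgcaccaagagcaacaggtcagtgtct
It holds a STAT match at -169 to -161 from the start, a motif found in 8.30% of all 32851 promoter windows of this length. No match to the other letters searched was found. A match describes letters in the window and is no evidence of binding.

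S100a3, a cysteine-rich, zinc-binding member known from the hair cuticle, was the other gene that rose. Its intensity was 64.7, 76.4 and 74.1 in KO samples 1, 2 and 3, and 32.1, 29.8 and 23.9 in the wild-type samples. The values within each genotype lay close together and did not overlap between genotypes. The KO mean was 71.8 ± 6.19 and the wild-type mean 28.6 ± 4.23 (SD, n = 3 samples per genotype). Their log2 difference was 0.98 ± 0.15 (SE), with a limma adjusted p of 0.0466. This p lies just under the threshold. The call was kept without KO sample 3 (0.0412) and was lost when any of the other 5 samples was left out (adjusted p 0.0849 to 0.163), with the difference between 0.90 and 1.04 throughout. It was also lost with the replicate number as a block (adjusted p = 0.147). S100a3 was dim, and on a scale with values below the background limit set to that limit and no offset its difference was 1.34.

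The calgranulins S100a8 and S100a9, the subunits of calprotectin, varied more between the KO samples than nearly all other genes. S100a8 read 164 in KO sample 1, 167 in KO sample 2 and 2946 in KO sample 3. In wild type it read 2326, 1536 and 896 in samples 1, 2 and 3. KO samples 1 and 2 thus lay below the whole wild-type range and KO sample 3 above it. S100a9 followed the same order, with 113, 143 and 1720 in the KO samples and 1404, 1245 and 569 in the wild-type samples. On the log2 scale the KO samples had an SD of 2.33 for S100a8 and 2.08 for S100a9, larger than in 99.8% and 99.7% of all genes tested, and the wild-type samples an SD of 0.68 and 0.69.

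The genotype difference was -1.69 ± 1.04 (SE) for S100a8 and -1.63 ± 0.94 for S100a9, and neither passed (limma adjusted p = 0.460 and 0.436). KO sample 3 decided both values, and it stood apart over all genes too. KO array 3 differed from KO arrays 1 and 2 by an SD of 0.640 and 0.595 on the log2 scale, KO array 1 from KO array 2 by 0.418, and KO arrays 1 and 2 from wild-type array 3 by 0.561 and 0.570. Without KO sample 3, 271 of all genes passed, against 70 with it. Without KO sample 3, which left 2 KO samples, S100a8 differed by -3.04 ± 0.37 (adjusted p = 0.0225) and S100a9 by -2.82 ± 0.38 (adjusted p = 0.0254), so both passed as lower. Without KO sample 1 the differences were -1.02 and -0.95, and without KO sample 2 they were -1.03 and -1.10 (adjusted p 0.715 to 0.767). The high level of KO sample 3 was read on both of its arrays, with S100a8 at 2713 on KO array 3 and 3200 on KO array 1.1, against 164 on KO array 1, whose repeat array 1.1 is labelled to be. Averaging the arrays as labelled gave differences of -1.04 for S100a8 and -1.01 for S100a9 (adjusted p = 0.569 and 0.524).

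**Figure D2:**
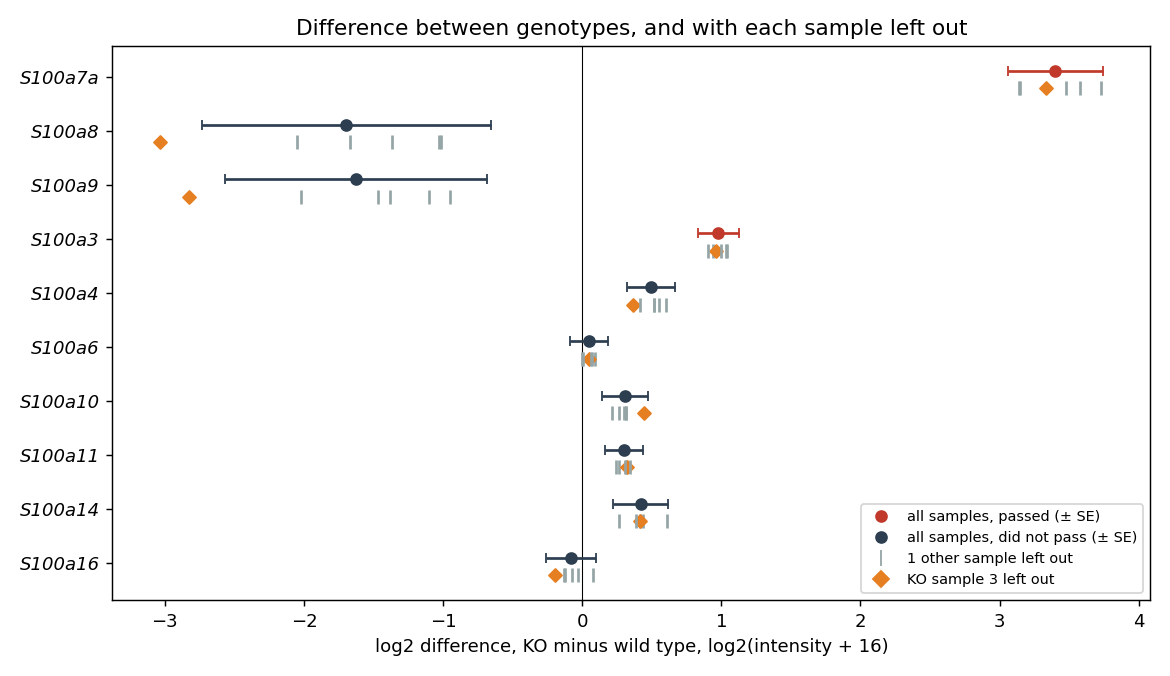
Log2 difference between KO and wild type for each S100 gene, on the log2(intensity + 16) scale, with all samples (circles, ± SE) and with each of the 6 samples left out in turn (ticks, and diamonds for KO sample 3). S100a8 and S100a9 move to -3.04 and -2.82 without KO sample 3, while S100a7a stays between 3.14 and 3.73.

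The promoter windows of S100a8 and S100a9 are shown because this pair ranked the samples in the same order (chr3:90668821-90669120, plus strand, and chr3:90695672-90695971, minus strand; RefSeq, GRCm38.p6). Capitals mark the same motifs as above.
S100a8: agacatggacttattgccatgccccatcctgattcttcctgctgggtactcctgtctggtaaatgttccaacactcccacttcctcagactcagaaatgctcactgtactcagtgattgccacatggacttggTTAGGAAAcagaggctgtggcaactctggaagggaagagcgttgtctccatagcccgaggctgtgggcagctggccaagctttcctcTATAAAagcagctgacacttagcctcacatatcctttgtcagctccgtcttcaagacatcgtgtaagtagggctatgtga
S100a9: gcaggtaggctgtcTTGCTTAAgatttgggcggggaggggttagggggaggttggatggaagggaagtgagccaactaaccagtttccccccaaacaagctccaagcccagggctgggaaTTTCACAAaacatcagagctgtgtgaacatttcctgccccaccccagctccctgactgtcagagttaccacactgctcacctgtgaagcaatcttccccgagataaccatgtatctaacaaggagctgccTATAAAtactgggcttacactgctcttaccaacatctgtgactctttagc
Both hold a C/EBP match, a motif in 40.7% of all windows, at -117 to -110 in S100a8 and at -236 to -229 and -130 to -123 in S100a9. Both also hold TATAAA, found in 13.6% of windows, at -30 to -25 in S100a8 and starting at the annotated first base in S100a9. In neither window was there a match to the AP-1 or STAT letters searched. No motif matches overlap in the 3 windows printed. Of the 10 genes, 8 had windows, 12 windows together, and S100a10 and S100a14 had none. AP-1 letters, present in 7.81% of all windows, were found in the window of S100a11 and in a window of S100a16. The C/EBP letters were also matched in S100a3, and TATAAA also in S100a3 and S100a4.

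Markers of other cells and of differentiation were read beside the calgranulins. S100a8 reached 3200 on KO array 1.1, while 7 of 13 neutrophil and macrophage markers, Ptprc, Itgam, Lyz2 and Mpo among them, were below the background limit on all 8 arrays. Of the others, Cd14, a lipopolysaccharide co-receptor, was above it on all 8, at 17.1 to 30.8. Ltf, lactoferrin, which epithelia also make, read 37.6 in KO sample 3 and 0.74 to 8.05 in the other samples. The list's sum was highest in KO sample 3, at 81.9 against 40.8 to 56.3 in the other samples, and so was the mean log2 level of its tested genes, at 5.18 against 4.55 to 4.76. The part of such cells in the calgranulin levels was not tested. Suprabasal keratinocyte markers, of which 7 of 9 with a probe were tested and Tgm3 and Dsg1a were above background on no array, summed to 4318, 6274 and 10315 in KO samples 1, 2 and 3 and to 10575, 11605 and 7423 in wild type. KO sample 3 was thus the highest KO sample for this list too. Krtdap was the brightest gene in this sum. The mean log2 level of the list's tested genes was 8.35 in KO sample 3, against 6.79 to 7.56 in the other samples. Lor, loricrin of the cornified envelope, read 227, 266 and 3034 in the KO samples and 261, 375 and 167 in wild type. Ivl, involucrin, read 105, 132 and 793 in KO and 81.8, 57.9 and 32.2 in wild type. In contrast to S100a8, Lor was about as high in KO samples 1 and 2 as in wild type. Krtdap, a differentiation-associated secreted protein, read 3572, 5585 and 5199 in KO and 9608, 10530 and 6997 in wild type. None of the 7 tested suprabasal markers passed limma's test, against 0.708% of all genes. Of the 7, 3 had an unadjusted p under 0.05, against 17.1% of all genes. The part of differentiation state in the calgranulin levels was not tested.

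**Figure D3:**
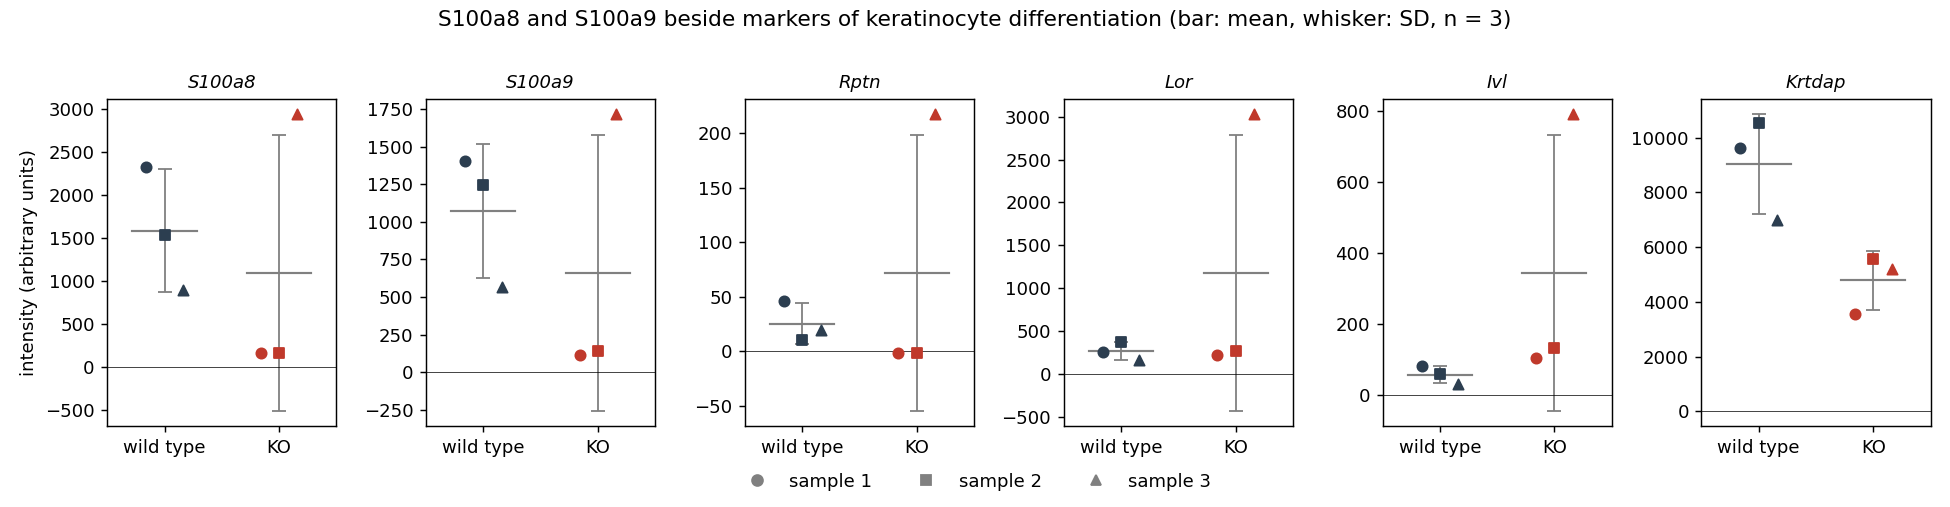
Intensity (arbitrary units, linear axis) of S100a8 and S100a9 beside Rptn, Lor, Ivl and Krtdap in the 3 wild-type and 3 KO samples, with mean bars and SD whiskers. KO sample 3 is the highest sample for S100a8, S100a9, Rptn, Lor and Ivl, but not for Krtdap.

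S100a10 and S100a11, which bind annexins, were slightly higher in KO and did not pass. S100a11, which binds annexin A1 and is built into the cornified envelope, read 17492, 18695 and 17235 in KO samples 1, 2 and 3 and 13427, 15319 and 14680 in wild type. The genotypes did not overlap, and the log2 difference was 0.30 ± 0.14 (SE; limma adjusted p = 0.319). These intensities lie near the top of the array's range. The deposited values appeared to be quantile-normalized, which assigns shared values to the arrays at all levels. S100a10, the partner of annexin A2, read 3056, 3271 and 2385 in KO and 2286, 2342 and 2331 in wild type. KO samples 1 and 2 were clearly above wild type, and KO sample 3 only narrowly. The 2 arrays of KO sample 3 read 2476 and 2298. The latter was below wild-type arrays 2, 3 and 1.1 and above wild-type array 1, so single arrays overlapped. The difference was 0.31 ± 0.16 (adjusted p = 0.390), and 0.44 without KO sample 3 (adjusted p = 0.141).

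S100a14, an epithelial member of the family, read 1279, 1322 and 1321 in KO and 926, 780 and 1271 in wild type. Wild-type sample 3 came close to the lowest KO sample. The 2 arrays of KO sample 3 read 1438 and 1213, the latter below wild-type sample 3, and with arrays averaged as labelled KO sample 1 was at 1246 and the genotypes overlapped. So averaged, 5 of the 10 genes lay above all wild-type samples, against 12.9% of all genes. Its difference was 0.42 ± 0.20 (SE; limma adjusted p = 0.332), and 0.61 without wild-type sample 3 (adjusted p = 0.156). S100a16 read 155, 209 and 234 in KO and 210, 224 and 193 in wild type, a difference of -0.08 ± 0.18 (adjusted p = 0.870). Its KO values spanned the whole wild-type range. S100a6, calcyclin, read 1991, 2270 and 2117 in KO and 2125, 1942 and 2099 in wild type. The genotypes overlapped, and the difference was 0.05 ± 0.14 (adjusted p = 0.899).

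S100a4, a binding partner of non-muscle myosin that is also used as a fibroblast marker, read 24.7, 19.9 and 34.0 in KO and 16.3, 10.5 and 14.5 in wild type. The values did not overlap between genotypes, with means of 26.2 ± 7.19 and 13.8 ± 2.97 (SD, n = 3 samples per genotype). The difference was 0.49 ± 0.18 (SE) and did not pass (limma adjusted p = 0.218). The fibroblast markers, led by Dcn, summed to 574, 317 and 272 in KO samples 1, 2 and 3 and to 491, 80.5 and 1124 in wild type, with Col1a2 and Postn above background on no array. Of 8 tested, 0 passed limma's test, against 0.708% of all genes, and 3 differed upward and 5 downward. The 3 positive ones were Twist1 (0.63 ± 0.28 (SE), limma adjusted p = 0.311), Col1a1 (0.36 ± 0.48, 0.759) and Thy1 (0.29 ± 0.84, 0.897). The part of fibroblasts in the S100a4 level was not tested.

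Other S100 and fused S100 genes were fewer on the array. Of 16 listed, with the binding protein S100pbp counted among them, 10 had a probe and 5 were tested. Among the 5, 0 passed limma's test, against 0.708% of all genes, and 0 had an unadjusted p under 0.05, against 17.1%. S100a1 was measured at 4.76, 5.99 and 18.6 in KO samples 1, 2 and 3 and 18.8, 13.8 and 20.01 in wild type, so it too was low in KO samples 1 and 2 only, near the background limit (-0.41 ± 0.22). S100a13 differed by 0.13 ± 0.20, S100pbp, an S100P-binding protein in human, by 0.37 ± 0.18, and Tchhl1 by -0.01 ± 0.15. Rptn, repetin, a fused S100 protein of the cornified envelope, read -1.54, -1.84 and 218 in KO and 46.1, 9.98 and 19.7 in wild type. Its second probe had the same order in KO, with -8.32 and 3.37 on KO arrays 1 and 2 and 71.0 and 91.5 on KO arrays 3 and 1.1. Hrnr, hornerin, was above background on KO arrays 3 and 1.1 alone, at 12.1 and 13.9. S100a5, S100b and S100g were above background on no array, and Flg2 on 1 wild-type array.

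On chromosome 3 the protein-coding genes of the reference gene table run in the order S100a1, S100a13, S100a14, S100a16, S100a3, S100a2, S100a4, S100a5, S100a6, S100a7a, S100a8, S100a9 and Pglyrp4. Beyond the Sprr and Lce families follow S100a11 and S100a10. S100a7a and S100a8 are thus direct neighbours, and their differences were 3.40 and -1.69, the latter not passing. S100a6, on the other side of S100a7a, differed by 0.05, and Pglyrp4, a peptidoglycan recognition protein beyond S100a9, by -0.32 ± 0.45. Tchhl1, beside S100a11, differed by -0.01. Tdpoz2, beside S100a10, was not above background on at least 3 arrays. Of 58 non-members between the first and last of the 10 genes, 28 were tested, with a median difference of -0.02. Of the 28, 0 passed limma's test, against 0.708% of all genes. The KO samples lay below all wild-type samples for Lce3b (-1.79 ± 0.42), Lce3c (-1.83 ± 0.42) and Tdpoz8 (-0.21 ± 0.13). They lay above them for Ivl (1.79 ± 0.69), and the rest overlapped. Of all genes 22.5% did not overlap.

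**Figure D4:**
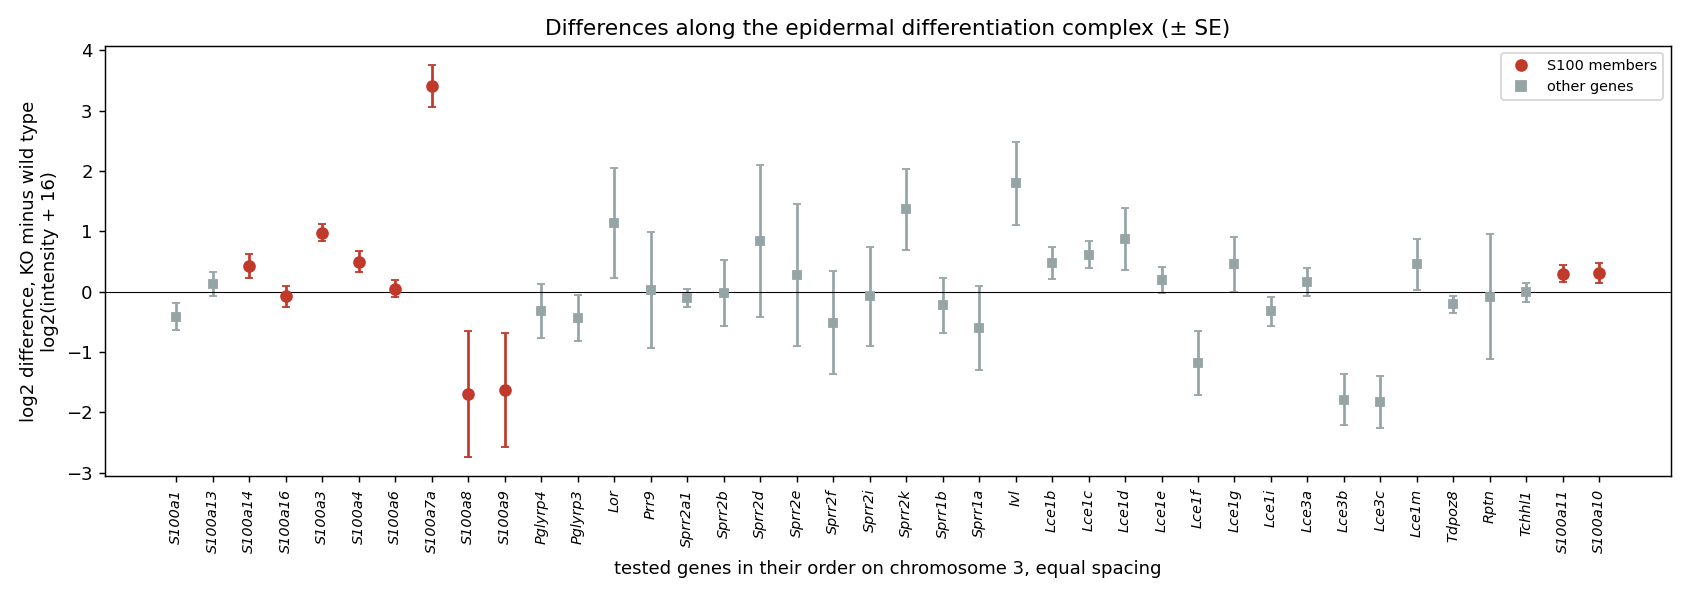
Log2 difference between KO and wild type (log2(intensity + 16) scale, ± SE) for the tested genes in their order on chromosome 3 at equal spacing, from S100a1 to S100a10. S100a7a, at 3.40, stands between S100a6 at 0.05 and S100a8 at -1.69.

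The likeness of other genes to S100a7a and S100a8 was measured as Pearson's r of log2 levels over the 6 samples, among 9871 genes, as a description. For S100a7a the closest were Tarbp2, a Dicer partner (r = 0.997), Senp5, a SUMO protease (0.993), and Tirap, an adaptor of Toll-like receptors (0.992), which differed by 0.39, 0.79 and 0.84 and did not pass (limma adjusted p = 0.202, 0.0637 and 0.0707). For S100a8 they were Teddm3 (r = 0.997), Ufl1, a UFM1 ligase (0.996), and Ly6g6c, a Ly6 family protein (0.994). Ly6g6c read 61.5, 57.2 and 1466 in KO samples 1, 2 and 3 and 1048, 622 and 279 in wild type, with the wild-type samples in the same order as for S100a8. The r of S100a8 with S100a9 was 0.994. All these values of r rest on the same 6 samples.

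Binding partners and receptors of S100 proteins showed no call. Of 25 listed genes 19 were tested, and 0 passed limma's test, against 0.708% of all genes. Of the 19, 4 had an unadjusted p under 0.05, against 17.1% of all genes. Their median was 0.39, against 0.02 for all genes. The largest differences were those of Ahnak, a giant protein bound by the S100a10 and annexin A2 complex (0.77 ± 0.22 (SE), adjusted p = 0.143), Tgm1, the transglutaminase of the cornified envelope (0.76 ± 0.49, 0.484), and Anxa6 (-0.69 ± 0.27, 0.255). Ahnak read 4328, 2898 and 2551 in KO and 1969, 1643 and 1976 in wild type, so it did not overlap. Anxa2 read 16242 to 17836 in KO and 16242 to 16447 in wild type. Anxa1 read 1311, 1700 and 3373 in KO and 1287, 1787 and 1135 in wild type, again highest in KO sample 3. The last 2 genes were chosen after their values were seen.

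Known regulators of S100 genes in keratinocytes also gave 0 calls among 21 tested of 28 listed, against 0.708% of all genes. Of the 21, 8 had an unadjusted p under 0.05, against 17.1% of all genes, and 16 were negative, against 4696 of 9881. Their median was -0.34, against 0.02 for all genes. The largest differences were those of Fosl1, an AP-1 subunit (1.69 ± 0.34 (SE), adjusted p = 0.0772), Il1a, interleukin 1 alpha (1.28 ± 0.48, 0.236), and Zfp750, a differentiation factor (-1.08 ± 0.32, 0.148). Cebpb, a C/EBP factor chosen after its values were seen, read 1619, 1223 and 2088 in KO and 3461, 3121 and 2991 in wild type (-0.98 ± 0.21, 0.0907). Unlike S100a8, it was below the wild-type range in KO sample 3 as well.

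Among 25 genes of inflamed epidermis, 19 were tested and 1 passed, Stfa2, a stefin A protease inhibitor, which fell by 3.06 ± 0.44 (SE) on the log2 scale (limma adjusted p = 0.0400). Of all genes 0.708% passed, and 17.1% had an unadjusted p under 0.05, which 7 of these 19 had. The list's median was -0.23, against 0.02 for all genes. It had 9 positive and 10 negative genes, against 5185 and 4696 of all 9881. Of its genes chosen after their values were seen, Slpi, an antiprotease, read 30.3, 169 and 3151 in KO samples 1, 2 and 3 and 418, 577 and 408 in wild type, low in KO samples 1 and 2 and high in KO sample 3 like S100a8. Defb4, a beta-defensin, read 15.3, 13.999 and 265 in KO and 74.95, 137 and 45.6 in wild type, with KO sample 3 again the highest and KO samples 1 and 2 the lowest. Not all genes of the list did so. Stfa1, Stfa2 and Stfa3 read 875, 42.2 and 3.28 in KO sample 3, below all their wild-type samples. Saa3, at 11.2, and Lcn2, at 51.4, were within their wild-type range in KO sample 3. In KO samples 1 and 2, however, Lcn2 read -8.45 and 1.63, below its wild-type range of 21.0 to 288, as S100a8 was. Cxcl5, a neutrophil-attracting chemokine, read 402, 1137 and 3245 in KO and 19.7, 83.2 and 79.5 in wild type (4.06 ± 0.74, adjusted p = 0.0637), so that, as for S100a7a, no KO sample overlapped with wild type.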

How the data were processed

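Biotin-labelled cRNA made from total RNA was measured on Illumina arrays, per the labels' protocols. The authors deposited 1 intensity per probe and array for 25697 probes, by steps not given in the sources used here. Those deposited intensities appeared to be already background-subtracted and quantile-normalized. On each array 27.1% to 27.3% of probes were negative. Identical high values recurred between arrays, such as 16242 for Anxa2 in KO sample 2 and wild-type samples 2 and 3. The minimum over all 8 arrays was -12.8, and the 75th percentile on KO array 1 was 98.8. A table of non-normalized values was not used here, because its 16 value columns match no sample label.

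An offset of 16 was added before log2. The background limit, 6.30, left 5% of the negative values mirrored around 0 above it. Probes above it on at least 3 arrays were kept and named by the platform annotation, which can be old (23978 probes had 1 gene symbol and 1719 none), with symbols taken from the gene table of GRCm38.p6. Of several probes of a gene the brightest was used, which gave 9881 genes. Genes were compared with limma 3.58.1 in R 4.3.3 (lmFit, eBayes, no block), tested on simulated data, with exact permutation tests in scipy 1.17.1. Averaging by agreement replaced the labelled pairing of the arrays.

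The named genes were all members, other S100 genes, called or otherwise the 3 most different genes of the further lists, the 3 most alike to S100a7a and S100a8, and their neighbours in gene order. The members, lists and settings were chosen with earlier results of these data known. The number of arrays limits the precision. Alternatives covered array averaging, offset, filters, centring, moderation, weights, a block and each sample left out.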

Additional observations from a re-analysis of the deposited data

How the results depend on the processing

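Of the 10 S100 genes, S100a7a kept its call in 15 of 18 alternatives and its direction in all 18, with a log2 difference between 2.96 and 3.79 (adjusted p 0.00363 to 0.0702). S100a3 kept its call in 12 of 18, with a difference between 0.63 and 1.34 (adjusted p 0.0129 to 0.163). With each sample left out in turn, the difference lay between 3.14 and 3.73 for S100a7a, 0.90 and 1.04 for S100a3, -3.04 and -1.02 for S100a8 and -2.82 and -0.95 for S100a9. The calls lost or gained then are given above. S100a8 and S100a9 passed in 1 of 18 alternatives, without KO sample 3, with adjusted p from 0.0225 to 0.767 and 0.0254 to 0.736 over all of them. S100a4, S100a10, S100a11 and S100a14 stayed positive and passed in 0 of 18. S100a6 turned to -0.00034 without KO sample 2 and ranged up to 0.093 with others left out, and S100a16 turned to 0.0058 with arrays averaged as labelled and ranged from -0.20 to 0.078 with each sample left out.

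The number of S100 genes that passed was 0 to 4 with each sample left out, against 2. The number of genes that passed in all, 70, became 261 with arrays averaged as labelled and 930 with array weights, and 5 to 271 with each sample left out (271 without KO sample 3, 11 and 9 without KO samples 1 and 2, and 5 and 8 without wild-type samples 1 and 2). The deviations of same-numbered samples from their group means correlated at 0.06, 0.02 and -0.35 over 9881 genes, and not every sample correlated best with its own number. KO sample 1 correlated with wild-type sample 3 at 0.27, and KO sample 3 with wild-type sample 1 at 0.16. This check cannot decide whether samples were paired, because it relies on the KO numbers, and a repeat KO array went against its label. A replicate block gave 21 genes and 1 S100 gene, with S100a3 at 0.98 (adjusted p = 0.147) and S100a7a at an adjusted p of 0.00621. The causes of these changes were not tested. Signals close to the background limit, as for S100a1, carry little information.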
